A study of Homo sapiens with 15 samples.

Results

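The genes described here were 41 chaperones, folding enzymes, stress sensors and degradation and transport factors of the endoplasmic reticulum (ER), taken by name for their known roles, of 18179 genes listed in either of the deposited tables. They and the further lists below were chosen with earlier results of these data known, so counts beside shares of all genes are descriptions and not independent tests. RNA of HaCaT cells, an established line of human keratinocytes, was sequenced from 5 groups of 3 libraries. The cells were left untreated (Control) or were given Ag2S NPs or Li-doped Ag2S NPs, both near-infrared-emitting silver sulfide nanoparticles, at 160 or 320 μg/mL for 24 h. The sources used here name no engineered genetic change and no second agent for any group. No source states whether the 3 libraries of a group came from separate cultures, so p-values measure the spread between these libraries, which may be technical. The titles of the Control and undoped libraries carry a mark that the titles of the Li-doped libraries lack, although the deposited column names carry it for all groups. Its meaning is not given, and if the titles are right whatever it marks cannot be told apart from Li doping. Levels are given in FPKM (fragments per kilobase of transcript, relative to all mapped fragments), which can be compared between genes because they are per length. Differences are log2 fold changes on log2(FPKM + 0.1) with their standard error (SE) from limma, and a gene rose or fell where the p-value, adjusted over all genes tested, was under 0.05.

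Proteins that enter the secretory pathway are threaded into the ER, folded there by chaperones of the Hsp70 and Hsp90 families and by lectin chaperones that bind glycans, and fixed in shape by enzymes that form disulfide bonds. When unfolded proteins accumulate, the sensors IRE1 (gene ERN1), PERK (EIF2AK3) and ATF6 start the unfolded protein response, which raises chaperones, slows translation and sends misfolded proteins to the proteasome by ER-associated degradation (ERAD). IRE1 cuts a short intron out of XBP1 mRNA outside the nucleus, and the shifted reading frame gives the active transcription factor XBP1s. Keratinocytes use this machinery for adhesion proteins, receptors and matrix proteins, collagens among them.

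The libraries were alike within groups, with a Pearson correlation of 0.9766 to 0.9874 over 11952 genes. One library with Li-doped Ag2S NPs at 320 μg/mL, replicate 15, stood apart, with a summed level of 698579 FPKM where the other 14 had 582451 to 648712. Its median distance from Control was 0.553 on the log2 scale where the other replicates of its group had 0.403 and 0.370. All 10 keratinocyte markers were listed and summed to 10398 to 16437 FPKM in the other 4 groups and to 24698 to 29493 FPKM with Li-doped Ag2S NPs at 320 μg/mL. The keratins KRT5, KRT14 and KRT15 carried most of this sum and moved apart, with KRT15 at a mean of 3035 FPKM in Control and 276 FPKM with Li-doped Ag2S NPs at 160 μg/mL, and KRT14 at 2635 and 5167 FPKM. Of 5 listed fibroblast markers, COL1A2, PDGFRA and PDGFRB were below 1 FPKM in every library. The list summed to 10.7 to 15.02 FPKM in Control and to 0.32 to 4.97 FPKM with NPs. Of 4 listed immune markers, CD3E and LYZ were below 1 FPKM in every library. The list, mainly CD68, summed to 11.1 to 12.1 FPKM in Control, 13.9 to 15.8 and 18.0 to 21.8 FPKM with Ag2S NPs at 160 and 320 μg/mL, and 25.8 to 29.4 and 9.55 to 12.03 FPKM with Li-doped Ag2S NPs. Of 4 listed melanocyte markers, DCT, MITF and MLANA were below 1 FPKM throughout, with sums of 1.74 to 3.34 FPKM. Of 3 listed endothelial markers, PECAM1 and VWF were below 1 FPKM throughout. The list summed to 3.36 to 4.01 FPKM in Control and 0.07 to 0.81 FPKM with NPs. The part of these markers in the results was not tested, and in bulk RNA fewer cells of a type and less RNA per cell cannot be told apart.

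In untreated cells, 8 of the 41 genes had a mean of at least 100 FPKM, 23 had 10 to 100 FPKM, 9 had 1 to 10 FPKM and 1 was below 1 FPKM. The highest levels were those of the folding enzymes and chaperones PPIB (302.7 ± 1.02 FPKM, SD, n = 3), PDIA3 (226 ± 7.83 FPKM), P4HB (199.8 ± 3.34 FPKM) and CALR (187 ± 3.35 FPKM), followed by HSP90B1 (172 ± 2.46 FPKM) and the translocon subunit SEC61B (167 ± 8.25 FPKM), whose libraries overlapped. CANX (149.8 ± 3.42 FPKM) and HSPA5 (122 ± 1.26 FPKM) came next. The genes between 1 and 10 FPKM included the sensors ERN1 and EIF2AK3, the transcription factor gene CREB3L2, the J protein gene DNAJB9 and the coat gene SEC24D. DERL3, a derlin of ERAD, lay between 0 and 0.08 FPKM in the 15 libraries and was the only one of the 41 to miss the filter of a mean of 1 FPKM, so that 40 were tested. Summed over the 41 genes, the level was 0.377% of all FPKM in each Control library. It was 0.431 to 0.460% with Ag2S NPs and 0.672 to 0.693% with Li-doped Ag2S NPs at 160 μg/mL, and 0.593 to 0.601% with Ag2S NPs and 0.414 to 0.458% with Li-doped Ag2S NPs at 320 μg/mL. The share of the ER genes was therefore higher in every library with NPs than in any Control library, and highest in the 3 libraries with Li-doped Ag2S NPs at 160 μg/mL.

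Li-doped Ag2S NPs at 160 μg/mL gave the widest change. Against Control, 30 of the 40 tested genes rose and 0 fell, where 22.6% of all genes tested rose and 40.6% fell. The median log2 fold change was 0.68 beside -0.19 over all genes. Undoped Ag2S NPs at the same dose gave 13 that rose and 6 that fell, where 11.5% and 23.8% of all genes did, with a median of 0.09 beside -0.14. Ag2S NPs at 320 μg/mL gave 21 that rose and 3 that fell, where 16.2% and 36.2% of all genes did, with a median of 0.28 beside -0.19. With Li-doped Ag2S NPs at 320 μg/mL, 15 rose and 9 fell, where 17% and 44.6% of all genes did, with a median of 0.05 beside -0.26. Without replicate 15 these counts were 16 and 7. These comparisons share the 3 Control libraries. Among all genes more fell than rose. A scaling that brought the median gene of every library to the same level raised the median over all genes by 0.13, 0.19, 0.17 and 0.25 in the order Ag2S 160, Li-doped 160, Ag2S 320 and Li-doped 320 μg/mL. After this scaling the ER genes gave 16 higher and 1 lower, 34 and 0, 25 and 0, and 22 and 5 in the same order, beside 16% higher and 14.1% lower, 30.6% and 30.1%, 23.7% and 22%, and 27.9% and 26.4% of all genes. Increases were thus found with either scaling, while most of the decreases named below were not called after it.

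**Figure D1:**
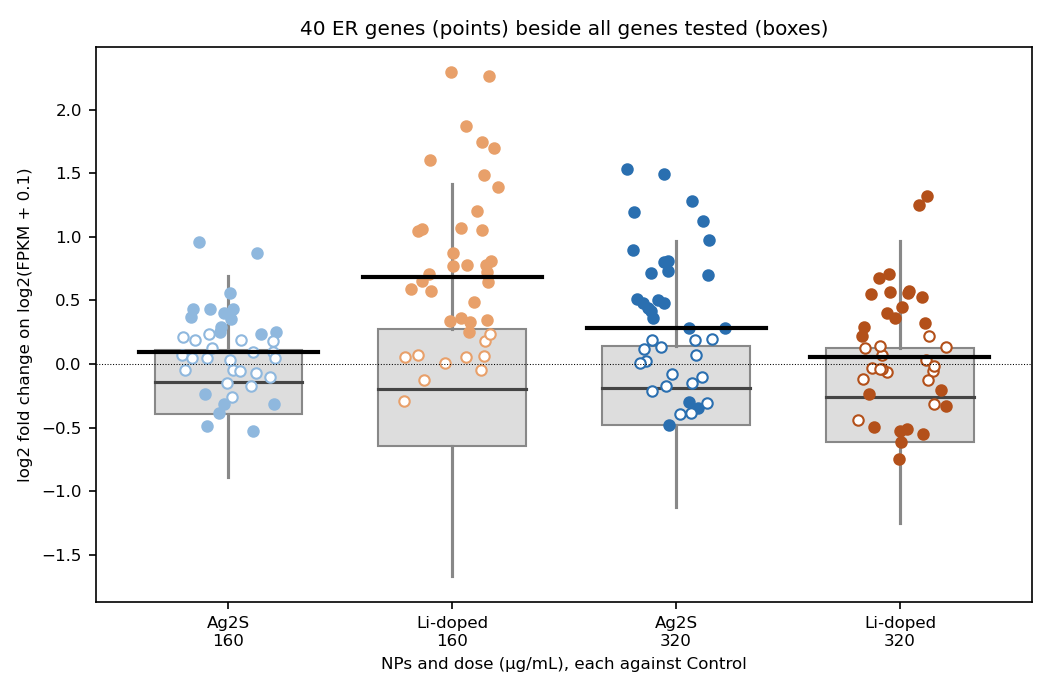
Log2 fold change against Control (y axis, on log2(FPKM + 0.1)) for the 40 tested ER genes (points, filled where the adjusted p was under 0.05) in the 4 groups with NPs (x axis, dose in μg/mL), with a thick line at their median. Boxes span the 25th to the 75th percentile of all genes tested, with a line at the median and whiskers to the 5th and 95th percentiles; the ER genes lie highest with Li-doped Ag2S NPs at 160 μg/mL, at a median of 0.68 beside -0.19 for all genes.

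**Figure D2:**
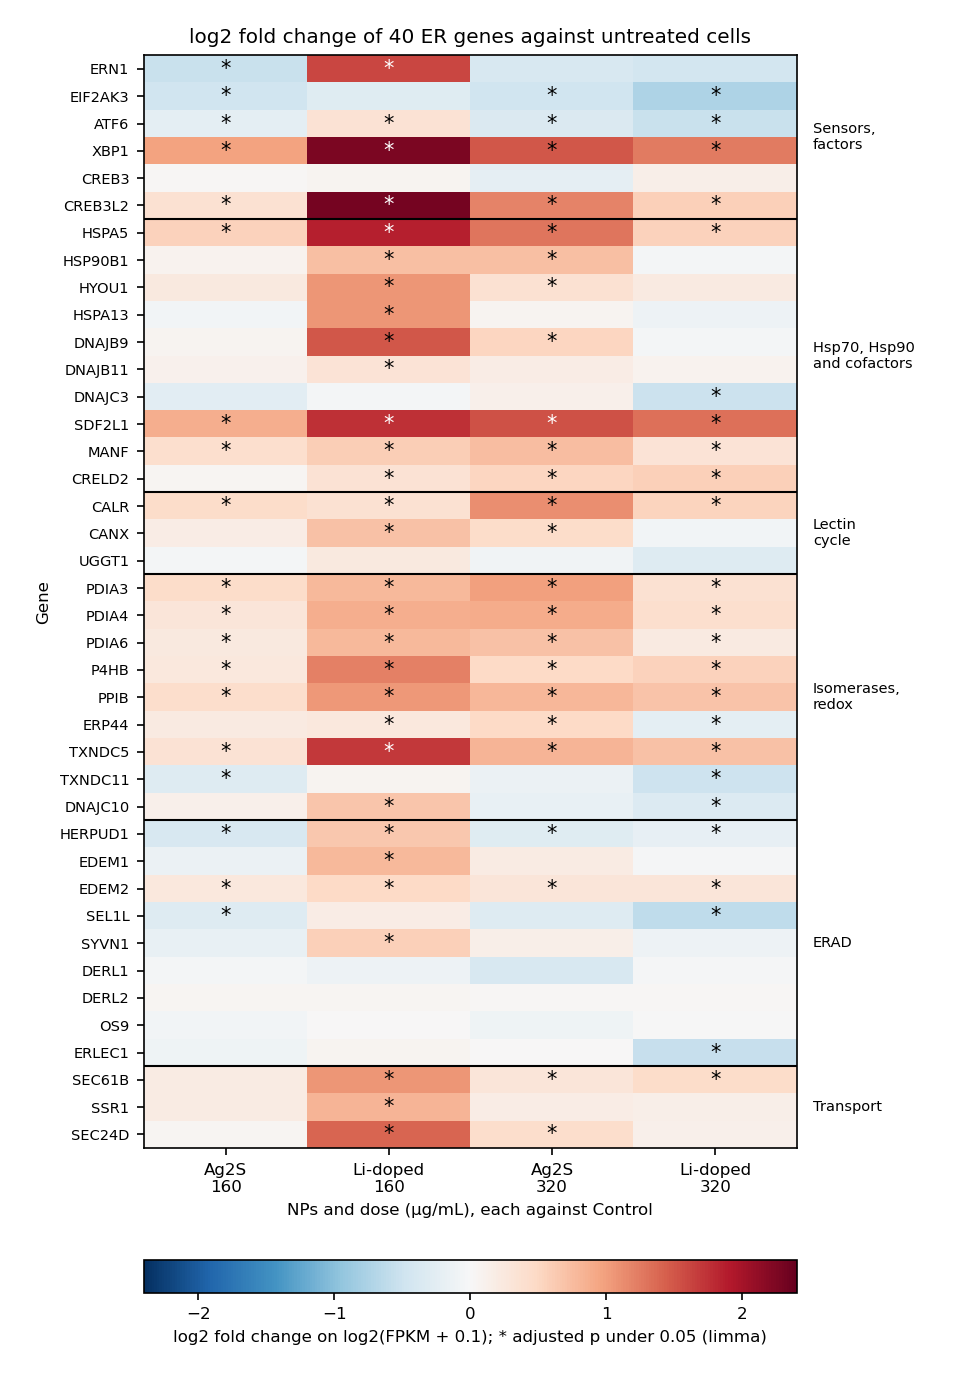
Log2 fold change against Control (colour, from blue for lower to red for higher) of the 40 tested ER genes, in rows grouped by role, with each kind of NPs and dose (columns, μg/mL); stars mark an adjusted p under 0.05 (limma). With Li-doped Ag2S NPs at 160 μg/mL 30 of the 40 rows are higher and starred, and with the same NPs at 320 μg/mL 15.

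Among the 6 sensors and transcription factors, XBP1 and CREB3L2 rose in all 4 groups with NPs. XBP1 lies on chromosome 22 (GRCh38 chr22:28794555-28800597, minus strand). It measured 28.6, 24.9 and 26.2 FPKM in Control, 46.3, 50.6 and 58.5 FPKM with Ag2S NPs and 126, 131 and 125 FPKM with Li-doped Ag2S NPs at 160 μg/mL. It measured 69.8, 77.7 and 77.3 FPKM with Ag2S NPs and 63.6, 64.7 and 61.5 FPKM with Li-doped Ag2S NPs at 320 μg/mL. All 12 libraries with NPs lay above the Control libraries, and the 3 with Li-doped Ag2S NPs at 160 μg/mL lay above all others. The log2 fold changes were 0.96 (SE 0.09, adjusted p = 3.93e-05) and 2.26 (SE 0.09, adjusted p = 7.34e-09) at 160 μg/mL with Ag2S and Li-doped Ag2S NPs, and 1.49 (SE 0.07, adjusted p = 3.88e-08) and 1.25 (SE 0.07, adjusted p = 1.37e-07) at 320 μg/mL.

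CREB3L2, an ATF6-like membrane-bound factor known for the secretion of matrix proteins, measured 3.44, 3.6 and 2.97 FPKM in Control and 15.5, 18.3 and 16.4 FPKM with Li-doped Ag2S NPs at 160 μg/mL, a log2 fold change of 2.29 (SE 0.13, adjusted p = 7.17e-08). It measured 4.45, 4.49 and 4.06 FPKM with Ag2S NPs at 160 μg/mL, 7.42, 8.10 and 7.68 FPKM with Ag2S NPs at 320 μg/mL, and 5.07, 5.56 and 4.40 FPKM with Li-doped Ag2S NPs at 320 μg/mL, all above Control. The changes there were 0.37 (adjusted p = 0.0413), 1.19 (adjusted p = 3.50e-05) and 0.57 (adjusted p = 0.00431).

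The 3 sensors behaved otherwise. ERN1, which encodes IRE1, measured 3.13, 3.22 and 2.90 FPKM in Control and 10.6, 9.41 and 8.75 FPKM with Li-doped Ag2S NPs at 160 μg/mL, and this was the single group in which it rose (1.60, SE 0.14, adjusted p = 2.57e-06). It fell with Ag2S NPs at 160 μg/mL (2.22, 2.12 and 1.98 FPKM, -0.53, adjusted p = 0.0147), also after scaling (-0.41). At 320 μg/mL it measured 2.08, 2.56 and 2.39 FPKM with Ag2S NPs and 2.22, 2.66 and 1.93 FPKM with Li-doped Ag2S NPs, below the Control range in each library but without passing the test (adjusted p = 0.0937 and 0.0545). ATF6 measured 14.4, 15.6 and 14.7 FPKM in Control and rose to 18.6, 18.7 and 19.3 FPKM with Li-doped Ag2S NPs at 160 μg/mL (0.34, adjusted p = 0.00381). It fell in the other groups, to 13.3, 12.1 and 12.6 FPKM (-0.23) and 12.7, 10.96 and 11.6 FPKM (-0.34) with Ag2S NPs at 160 and 320 μg/mL and to 10.6, 11.2 and 9.17 FPKM with Li-doped Ag2S NPs at 320 μg/mL (-0.53, adjusted p = 0.00125). Only the last of these passed the test after scaling (-0.28). EIF2AK3, which encodes PERK, measured 4.12, 4.53 and 4.73 FPKM in Control and rose in no group. It measured 2.88, 2.78 and 3.9 FPKM with Ag2S NPs at 160 μg/mL (-0.49, adjusted p = 0.0429), 3.93, 3.39 and 3.58 FPKM with Li-doped Ag2S NPs at 160 μg/mL (-0.29, adjusted p = 0.151), 3.49, 3.24 and 2.81 FPKM with Ag2S NPs at 320 μg/mL (-0.48, adjusted p = 0.0278) and 2.59, 2.96 and 2.32 FPKM with Li-doped Ag2S NPs at 320 μg/mL (-0.75, adjusted p = 0.0021). After scaling the fall with Li-doped Ag2S NPs at 320 μg/mL was the one still called (-0.50). CREB3, a further membrane-bound factor, had log2 fold changes of -0.21 to 0.13, none of which passed the test. After scaling it was called higher with Li-doped Ag2S NPs at 320 μg/mL (0.39, adjusted p = 0.0473).

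**Figure D3:**
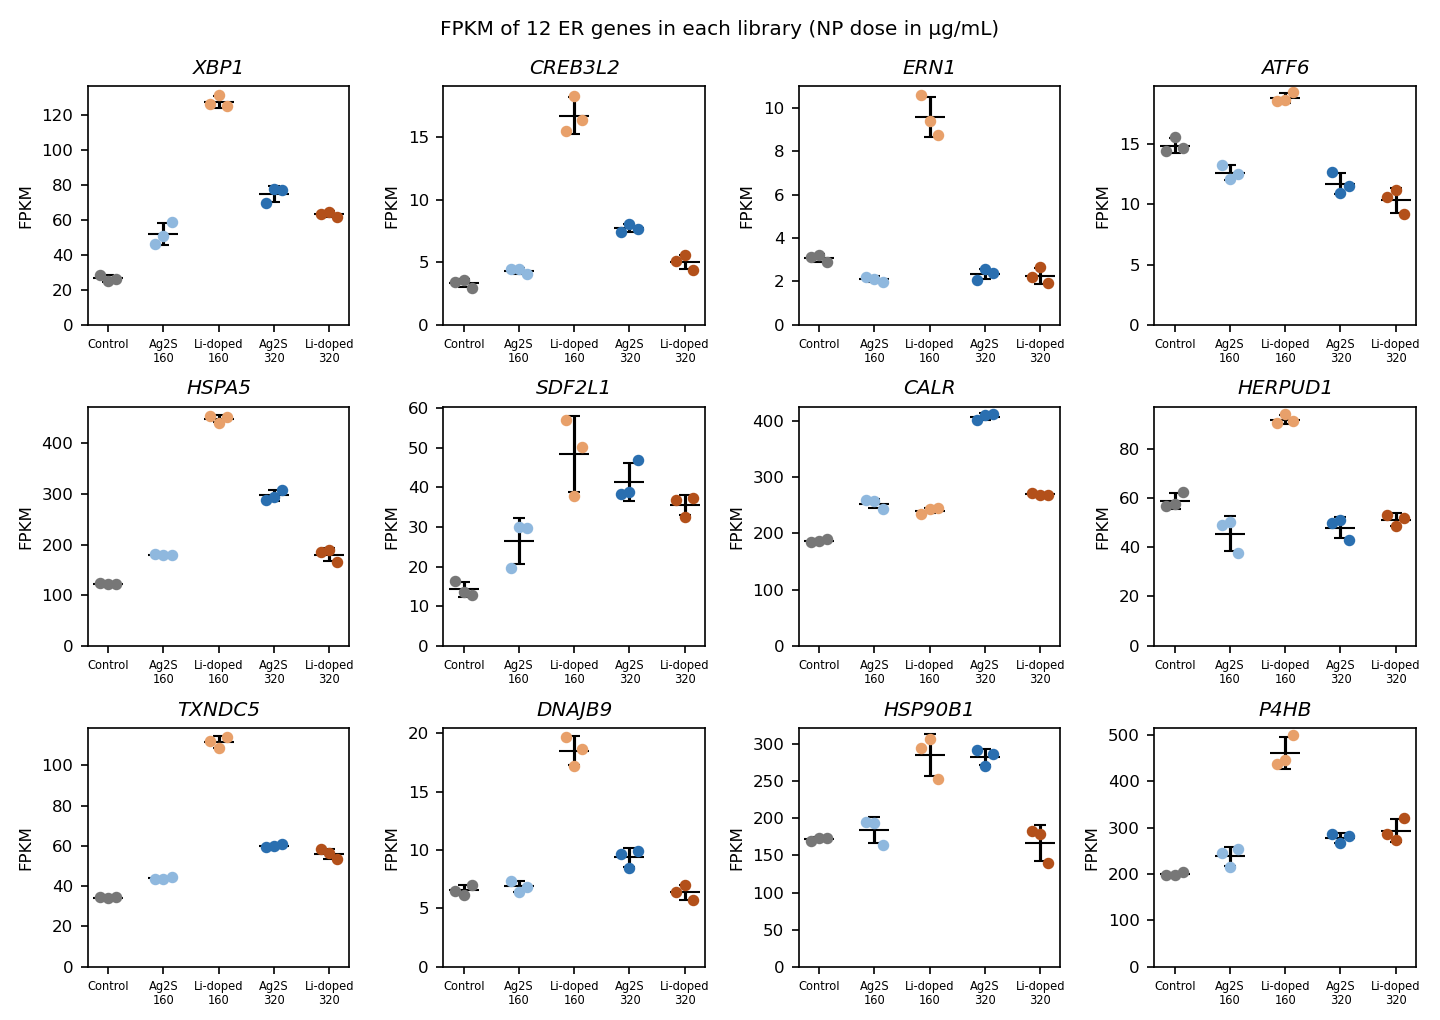
FPKM (y axis, from 0) of 12 ER genes in each library (points) by group (x axis, dose in μg/mL), with the mean as a short line and the SD of 3 libraries as error bars. ERN1 is above Control with Li-doped Ag2S NPs at 160 μg/mL alone, and CALR is highest with Ag2S NPs at 320 μg/mL, at 401 to 412 FPKM.

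XBP1 mRNA was listed as 7 transcripts. Of these, ENST00000344347 and ENST00000611155 lack 26 bases in the middle of an exon of ENST00000216037, where the intron that IRE1 removes lies. The missing bases are annotated at chr22:28796122-28796147 and chr22:28796124-28796149 of GRCh38 (minus strand). Though the intervals are offset, removal of either leaves the same bases across the join, so both transcripts read alike there. The stretch is shown as it reads in both forms, from chr22:28796095-28796174, because the loss shifts the reading frame. Capitals mark the 26 bases as annotated for ENST00000344347. The coding sequence had 261 codons with them (ENST00000216037) and 376 without.
ENST00000216037: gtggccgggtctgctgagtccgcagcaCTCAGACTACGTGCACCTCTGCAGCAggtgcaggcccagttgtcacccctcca
ENST00000344347: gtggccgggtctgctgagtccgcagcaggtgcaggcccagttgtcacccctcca

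Shares were taken over all 7 listed XBP1 transcripts, which were not each checked for covering the stretch shown. Among them, ENST00000484256 averaged 1.03 FPKM in Control and 9.12 FPKM with Li-doped Ag2S NPs at 160 μg/mL. Together both transcripts without the 26 bases held 2.73, 0 and 3.81% of XBP1 FPKM in the Control libraries. They held 3.42, 9.74 and 11.9% with Ag2S NPs and 23.8, 18.0 and 22.4% with Li-doped Ag2S NPs at 160 μg/mL, and 11.3, 14.6 and 10.4% and 10.7, 13.9 and 10.6% with Ag2S and Li-doped Ag2S NPs at 320 μg/mL. The share was above every Control library in all 3 libraries of these last 3 groups, and with Ag2S NPs at 160 μg/mL it overlapped Control. By an exact two-sided permutation test, p was 0.1 for each of the 3 groups against Control, which is the smallest value that 3 against 3 libraries allow (0.16 when adjusted over 8 comparisons), and 0.2 with Ag2S NPs at 160 μg/mL. The share was higher with Li-doped than with undoped NPs at 160 μg/mL by 13.1 percentage points (exact p = 0.1, again the smallest possible), and at 320 μg/mL the difference was -0.343 points (exact p = 0.7).

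As levels, ENST00000344347 measured 0.78, 0 and 1.00 FPKM in Control, 1.58, 4.27 and 3.09 FPKM with Ag2S NPs and 26.1, 21.3 and 25.5 FPKM with Li-doped Ag2S NPs at 160 μg/mL, and 6.8, 6.39 and 6.78 FPKM and 5.76, 7.05 and 5.03 FPKM with Ag2S and Li-doped Ag2S NPs at 320 μg/mL. In the fit over all transcripts its log2 fold change was 5.73 with Li-doped Ag2S NPs at 160 μg/mL (SE 0.83, adjusted p = 0.0013), 3.88 with Ag2S NPs at 320 μg/mL (adjusted p = 0.0111) and 3.71 with Li-doped Ag2S NPs at 320 μg/mL (adjusted p = 0.011). For Ag2S NPs at 160 μg/mL it was 2.64 (adjusted p = 0.11), and a pseudocount of 1 in place of 0.1 brought it to 1.32 and past the threshold (adjusted p = 0.047). The same pseudocount lowered the other 3 values to 4.05, 2.33 and 2.18, all still called, so the size of these changes rests on the pseudocount. ENST00000611155 was listed at 0 in all 3 Control libraries and lay between 1.03 and 4.95 FPKM in the 9 libraries of the other 3 groups, and it passed the test in each of them. The full-length ENST00000216037 also rose, from 24.4 FPKM in Control to 86.2 FPKM with Li-doped Ag2S NPs at 160 μg/mL (1.82, SE 0.11, adjusted p = 9.28e-06). These transcript levels are estimates that the authors' software shared out among overlapping transcripts. The bases across the join are the same in ENST00000344347 and ENST00000611155, so the join itself does not tell their levels apart. Of the tested transcripts of the ER genes, 42 of 119 were higher with Li-doped Ag2S NPs at 160 μg/mL, where 9.95% of all transcripts were. With Ag2S NPs at 160 μg/mL 8 of 119 were (2.66% of all), and at 320 μg/mL 26 of 108 with Ag2S NPs (6.51% of all) and 20 of 108 with Li-doped Ag2S NPs (7.21% of all). With Li-doped Ag2S NPs at 320 μg/mL 7 of 108 were lower, and in each other group 0 were. The share of all transcripts that were lower was not counted.

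**Figure D4:**
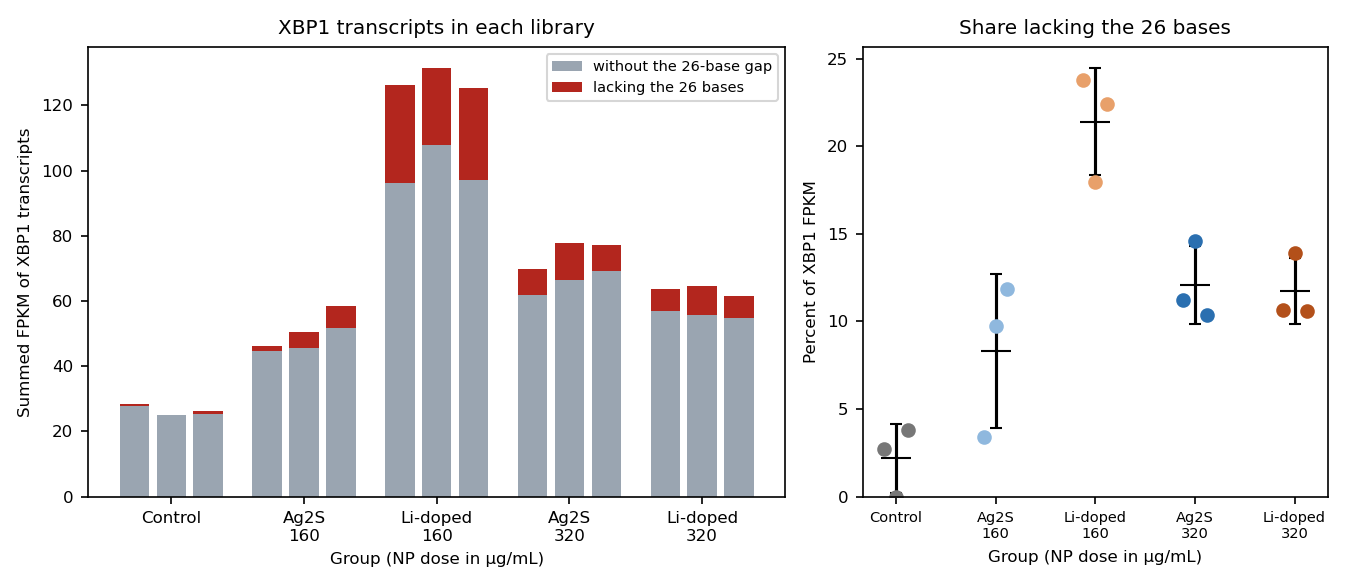
Left, summed FPKM (y axis) of XBP1 transcripts in each library (bars, replicates side by side, grouped on the x axis with the dose in μg/mL), with the part lacking the 26 bases in red. Right, that part as a percent of XBP1 FPKM per library (points), with the mean and SD of 3 libraries; it is 18.0 to 23.8% with Li-doped Ag2S NPs at 160 μg/mL and 0 to 3.81% in Control.

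Of the 10 chaperones of the Hsp70 and Hsp90 families and their cofactors, 9 rose with Li-doped Ag2S NPs at 160 μg/mL, 7 with Ag2S NPs at 320 μg/mL, 4 with Li-doped Ag2S NPs at 320 μg/mL and 3 with Ag2S NPs at 160 μg/mL, where 22.6%, 16.2%, 17% and 11.5% of all genes rose. After scaling these were 9, 9, 7 and 4, beside 30.6%, 23.7%, 27.9% and 16% of all genes. HSP90B1, HYOU1 and DNAJB11 were added in the group with Li-doped NPs at 320 μg/mL. HSPA5 (GRCh38 chr9:125234853-125241330, minus strand) encodes BiP, the main Hsp70 of the ER, which also holds the sensors inactive. It measured 124, 122 and 121 FPKM in Control, 181, 179.6 and 179 FPKM with Ag2S NPs and 453, 441 and 452 FPKM with Li-doped Ag2S NPs at 160 μg/mL. At 320 μg/mL it measured 288, 295 and 309 FPKM with Ag2S NPs and 185, 189 and 166 FPKM with Li-doped Ag2S NPs. Every library with NPs lay above Control, and the order of the kinds of NPs was opposite at the lower and the higher dose. The log2 fold changes were 0.56 (SE 0.05, adjusted p = 3.53e-05) and 1.87 (SE 0.05, adjusted p = 6.16e-10) with Ag2S and Li-doped Ag2S NPs at 160 μg/mL, and 1.28 (SE 0.06, adjusted p = 3.88e-08) and 0.56 (SE 0.06, adjusted p = 2.12e-05) at 320 μg/mL.

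SDF2L1, a partner of BiP and its J proteins, measured 16.4, 13.6 and 12.7 FPKM in Control, 19.7, 30.0 and 29.7 FPKM and 57.0, 38.0 and 50.2 FPKM with Ag2S and Li-doped Ag2S NPs at 160 μg/mL, and 38.3, 38.9 and 46.9 FPKM and 36.9, 32.7 and 37.3 FPKM at 320 μg/mL. It rose in all 4 groups, by 0.87 (SE 0.19), 1.75 (SE 0.19), 1.54 (SE 0.11) and 1.32 (SE 0.11) in that order. DNAJB9, a J protein that restrains IRE1, rose from 6.51, 6.12 and 7.01 FPKM to 19.6, 17.2 and 18.7 FPKM with Li-doped Ag2S NPs at 160 μg/mL (1.48, SE 0.11) and to 9.66, 8.47 and 9.92 FPKM with Ag2S NPs at 320 μg/mL (0.51, adjusted p = 0.00505). With Ag2S NPs at 160 μg/mL it measured 7.35, 6.39 and 6.86 FPKM, and with Li-doped Ag2S NPs at 320 μg/mL 6.36, 7 and 5.75 FPKM, both overlapping Control. HYOU1, a nucleotide exchange factor of BiP, measured 32.4, 35.4 and 31.8 FPKM in Control, 69.5, 66.4 and 72.7 FPKM with Li-doped Ag2S NPs at 160 μg/mL (1.07, SE 0.09) and 43.3, 41.6 and 42.9 FPKM with Ag2S NPs at 320 μg/mL (0.36, adjusted p = 0.00918). Its 42.7, 41.6 and 33.8 FPKM with Ag2S NPs at 160 μg/mL and 39.7, 43.9 and 33.03 FPKM with Li-doped Ag2S NPs at 320 μg/mL passed the test only after scaling (0.36 and 0.47). HSPA13, a further Hsp70 protein, rose with Li-doped Ag2S NPs at 160 μg/mL alone, from 5.39, 5.11 and 6.65 FPKM to 11.7, 11.5 and 12.9 FPKM (1.07, SE 0.15, adjusted p = 0.000101). The other groups with NPs lay between 4.54 and 6.44 FPKM.

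HSP90B1, which encodes the Hsp90 of the ER, rose with Li-doped Ag2S NPs at 160 μg/mL (0.72) and with Ag2S NPs at 320 μg/mL (0.71), from 169 to 174 FPKM in Control to 253 to 307 and 270 to 292 FPKM. MANF, a secreted cofactor of BiP, rose in all 4 groups, by 0.32 to 0.73. CRELD2, a secreted ER stress protein, rose in 3 groups and most with Li-doped Ag2S NPs at 320 μg/mL (0.57, SE 0.09), where it measured 20.5 to 23.4 FPKM against 13.96 to 15.1 FPKM in Control. DNAJB11, a J protein, rose with Li-doped Ag2S NPs at 160 μg/mL (0.33, adjusted p = 0.0148) and passed the test with either kind of NPs at 320 μg/mL only after scaling (0.36 and 0.33). DNAJC3, which inhibits PERK, fell with Li-doped Ag2S NPs at 320 μg/mL (-0.51, SE 0.11, and -0.26 after scaling, adjusted p = 0.0333). With Ag2S NPs at 320 μg/mL it passed the test only after scaling, as higher (0.12, and 0.29 after scaling).

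Of the lectin chaperones, CALR, which encodes calreticulin, had another order of groups. It measured 184, 186 and 190.4 FPKM in Control, 258, 257 and 243 FPKM with Ag2S NPs and 235, 243 and 244 FPKM with Li-doped Ag2S NPs at 160 μg/mL. At 320 μg/mL it measured 401, 410.1 and 412 FPKM with Ag2S NPs and 272, 268 and 268 FPKM with Li-doped Ag2S NPs. It rose in all 4 groups, by 0.43, 0.36, 1.12 (SE 0.05, adjusted p = 1.97e-08) and 0.53, and its highest level was with Ag2S NPs at 320 μg/mL. The means of DNAJC3, ERP44, MANF, PDIA3 and PDIA4 were also highest in that group, those of 30 of the 40 tested genes with Li-doped Ag2S NPs at 160 μg/mL, those of CREB3 and CRELD2 with Li-doped Ag2S NPs at 320 μg/mL and those of DERL1 and EIF2AK3 in Control. The share of all genes with their highest mean in each group was not counted, so these numbers cannot be set against it. CANX, the membrane-bound calnexin, rose with Li-doped Ag2S NPs at 160 μg/mL (0.71) and Ag2S NPs at 320 μg/mL (0.44), and after scaling in the other groups too (0.31 and 0.19). UGGT1, which re-glucosylates unfolded glycoproteins, had log2 fold changes of -0.32 to 0.23, none of which passed the test before scaling. With Li-doped Ag2S NPs at 160 μg/mL it was called higher after scaling (0.42).

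Of the 9 isomerases and redox proteins, 8 were higher with Li-doped Ag2S NPs at 160 μg/mL, 7 with Ag2S NPs at 320 μg/mL and 6 in each of the other groups, where 22.6%, 16.2% and 11.5 to 17% of all genes rose. TXNDC5, a thioredoxin-like disulfide isomerase, measured 34.4, 33.9 and 34.6 FPKM in Control, 43.5, 43.8 and 44.5 FPKM and 112, 109 and 114 FPKM with Ag2S and Li-doped Ag2S NPs at 160 μg/mL, and 59.3, 59.8 and 61.1 FPKM and 58.3, 56.6 and 53.3 FPKM at 320 μg/mL. No library with NPs overlapped Control, and the log2 fold changes were 0.36 (SE 0.06), 1.70 (SE 0.06, adjusted p = 2.63e-09), 0.81 (SE 0.06) and 0.71 (SE 0.06). P4HB, a disulfide isomerase that is also the beta subunit of the prolyl hydroxylase of collagen, measured 197, 199 and 204 FPKM in Control, 246, 214 and 254 FPKM and 437, 447 and 500.2 FPKM at 160 μg/mL, and 287, 267 and 283 FPKM and 288, 273 and 320.5 FPKM at 320 μg/mL, with Ag2S before Li-doped Ag2S NPs. It rose by 0.25 (adjusted p = 0.031), 1.20 (adjusted p = 2.76e-07), 0.48 (adjusted p = 0.000121) and 0.55 (adjusted p = 3.74e-05). PPIB, a proline isomerase that also assists collagen folding, rose by 0.43, 1.05, 0.81 and 0.68. PDIA3, PDIA4 and PDIA6 rose in all 4 groups as well, by 0.22 to 0.98. ERP44, which retains proteins with free thiols, rose with Li-doped Ag2S NPs at 160 μg/mL (0.25) and Ag2S NPs at 320 μg/mL (0.48) and was lower with Li-doped Ag2S NPs at 320 μg/mL (-0.23, but 0.02 after scaling). ERP44 was also called with Ag2S NPs at 160 μg/mL after scaling (0.34). DNAJC10, a disulfide reductase of ERAD, rose with Li-doped Ag2S NPs at 160 μg/mL (0.66), and TXNDC11 rose in no group. Their decreases with Li-doped Ag2S NPs at 320 μg/mL (-0.33 and -0.50) did not pass the test after scaling. TXNDC11 also fell with Ag2S NPs at 160 μg/mL, to 11.7 to 14.9 FPKM from 14.8 to 17.0 FPKM in Control, and was not called after scaling.

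Of the 9 tested ERAD genes, 4 rose with Li-doped Ag2S NPs at 160 μg/mL, where 22.6% of all genes did, and 1 in each of the other groups, where 11.5 to 17% of all genes did. After scaling 7 were higher with Li-doped Ag2S NPs at 160 μg/mL, where 30.6% of all genes were. In the order Ag2S 160, Ag2S 320 and Li-doped 320 μg/mL 1, 2 and 1 were, beside 16%, 23.7% and 27.9% of all genes. The median log2 fold changes of the ERAD genes before scaling were between -0.10 and 0.18. HERPUD1, a stress-induced scaffold of the ERAD complex, measured 56.7, 57.4 and 62.6 FPKM in Control and rose to 90.4, 94.1 and 91.1 FPKM with Li-doped Ag2S NPs at 160 μg/mL (0.64, SE 0.10, adjusted p = 0.000274). It was lower in the other groups, at 49.1, 50.1 and 37.5 FPKM (-0.38, adjusted p = 0.0169) and 49.8, 51.0 and 43.0 FPKM (-0.30, adjusted p = 0.00887) with Ag2S NPs at 160 and 320 μg/mL and 53.2, 48.5 and 52.0 FPKM with Li-doped Ag2S NPs at 320 μg/mL (-0.20, adjusted p = 0.0473), all below the Control range. After scaling these became -0.25, -0.13 and 0.05 and none passed the test. EDEM2, which trims mannose from glycoproteins for degradation, rose in all 4 groups (0.25, 0.48, 0.28 and 0.29), and EDEM1, of the same family, and SYVN1, the ubiquitin ligase HRD1, rose with Li-doped Ag2S NPs at 160 μg/mL alone (0.78 and 0.57), though SYVN1 was also called with Ag2S NPs at 320 μg/mL after scaling (0.31). SYVN1 shares 356 bases of exon on the same strand with FAU, whose mean level was 633 FPKM, so its level is uncertain. SEL1L, the partner of HRD1, and ERLEC1, an ERAD lectin, fell with Li-doped Ag2S NPs at 320 μg/mL (-0.61 and -0.55, and -0.36 and -0.29 after scaling, both still called). Both were called higher with Li-doped Ag2S NPs at 160 μg/mL after scaling (0.37 and 0.24). With Ag2S NPs at 160 μg/mL SEL1L was lower too, at 12.6 to 16.3 FPKM against 18.3 to 18.8 FPKM in Control, though not called after scaling. DERL1, DERL2 and OS9 passed the test in no comparison before scaling, and after it DERL2 was called higher with Li-doped Ag2S NPs at 160 μg/mL (0.24). DERL2 measured 51.5 to 67.0 FPKM over the 15 libraries, OS9 1.26 to 2.09 FPKM and DERL1 1.82 to 3.38 FPKM.

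The 3 genes of transport into and out of the ER rose with Li-doped Ag2S NPs at 160 μg/mL, where 22.6% of all genes did. SEC24D, a cargo adaptor of COPII vesicles, measured 7.05, 7.65 and 6.37 FPKM in Control and 20.7, 16.9 and 18.2 FPKM in that group (1.39, SE 0.12, adjusted p = 1.75e-06), and 9.88, 8.96 and 9.35 FPKM with Ag2S NPs at 320 μg/mL (0.42, adjusted p = 0.00838). It measured 7.75, 6.97 and 7.07 FPKM with Ag2S NPs at 160 μg/mL and 7.81, 7.89 and 7.29 FPKM with Li-doped Ag2S NPs at 320 μg/mL and did not pass the test there, except with Li-doped NPs after scaling (0.38). SEC61B rose by 1.05, with 291 to 392 FPKM against 162 to 177 FPKM in Control, and by 0.28 and 0.45 with Ag2S and Li-doped Ag2S NPs at 320 μg/mL. SSR1, of the translocon-associated complex, rose by 0.81 with Li-doped Ag2S NPs at 160 μg/mL, and after scaling it was also called at 320 μg/mL with both kinds (0.36 and 0.40).

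The direct comparison of both kinds of NPs at each dose asked whether Li doping changed these levels. At 160 μg/mL, 28 of 40 ER genes were higher with Li-doped than with undoped NPs and 0 were lower, where 21.4% of all genes were higher and 29% lower, and the median difference was 0.56 beside -0.05. ERN1 differed most (2.13, 95% interval 1.82 to 2.44), then CREB3L2 (1.92, 1.65 to 2.20), DNAJB9 (1.42, 1.18 to 1.65), TXNDC5 (1.34, 1.22 to 1.47), SEC24D (1.34, 1.09 to 1.59), HSPA5 (1.32, 1.20 to 1.43) and XBP1 (1.31, 1.11 to 1.5). At 320 μg/mL, 0 were higher and 15 lower with Li-doped NPs, where 10.1% and 16.1% of all genes were, and the median was -0.23 beside -0.08. The largest of these differences were in HSP90B1 (-0.77, -0.97 to -0.57), HSPA5 (-0.72, -0.86 to -0.59), ERP44 (-0.71, -0.85 to -0.58), DNAJC3 (-0.63, -0.88 to -0.37) and CREB3L2 (-0.62, -0.93 to -0.32). HSPA5 and CREB3L2 were thus higher with Li-doped NPs at the lower dose and higher with undoped NPs at the higher dose. For TXNDC5 at 320 μg/mL the interval of the difference was -0.23 to 0.03, for P4HB -0.07 to 0.22 and for ERN1 -0.45 to 0.35, and none passed the test. CALR at 160 μg/mL (-0.07, -0.19 to 0.05) and DERL2 at both doses (0.00, -0.19 to 0.20, and 0.01, -0.23 to 0.25) did not pass it either.

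**Figure D5:**
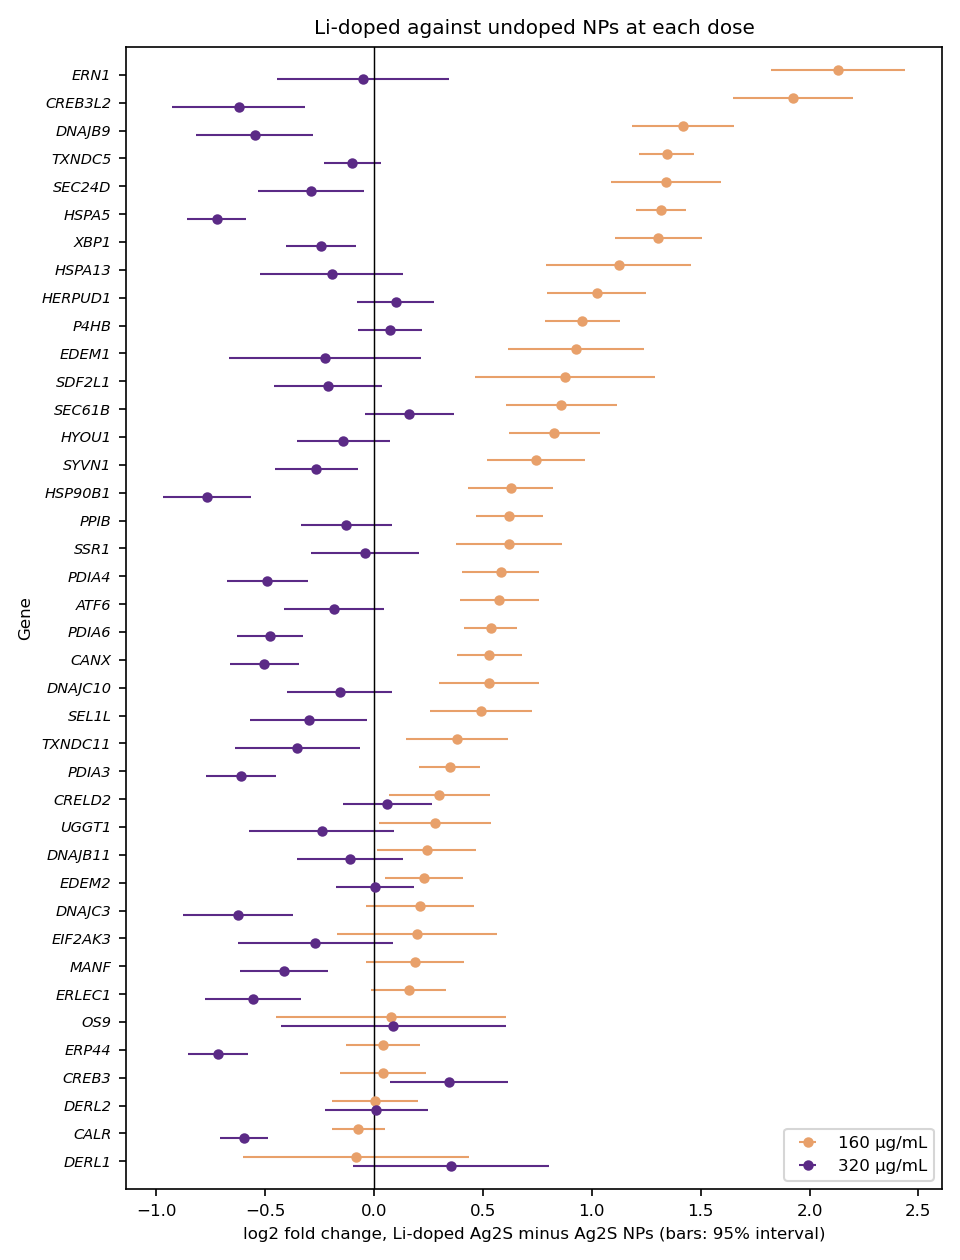
Log2 fold change of Li-doped over undoped Ag2S NPs (x axis, with 95% intervals as bars) for the 40 tested ER genes (y axis, ordered by the value at 160 μg/mL) at 160 μg/mL (orange) and 320 μg/mL (purple). The orange points lie mostly above 0, with 28 called higher, and the purple points mostly below 0, with 15 called lower.

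Raising the dose from 160 to 320 μg/mL went in opposite directions with the 2 kinds of NPs. With undoped NPs, 17 of the 40 genes were higher at the higher dose and 0 lower, where 4.84% and 7.68% of all genes were, with CREB3L2 (0.82, SE 0.12), HSPA5 (0.72, SE 0.06), CALR (0.69, SE 0.05) and SDF2L1 (0.66, SE 0.17) the most changed. The 17 became 11 when Ag2S replicate 9 at 320 μg/mL was left out. With Li-doped NPs, 1 was higher and 31 lower, where 19.6% and 23.3% of all genes were. The 1 higher was CALR (0.16, adjusted p = 0.0172), which lost its call when replicate 10 or replicate 13 of the Li-doped NPs was left out. ERN1 (-2.04, SE 0.16), CREB3L2 (-1.72, SE 0.12), DNAJB9 (-1.53, SE 0.11), HSPA5 (-1.32, SE 0.06) and SEC24D (-1.26, SE 0.11) were the most lowered. The difference between these dose effects was tested as an interaction term over all 15 libraries. It passed for 32 of the 40 genes, all in the direction of a lower effect of dose with Li-doped NPs, where 19.5% of all genes passed in that direction and 20.2% in the other. The median was -0.81 beside -0.04 over all genes. The smallest p-values belonged to TXNDC5 (-1.44, SE 0.08, adjusted p = 3.90e-09), HSPA5 (-2.04, SE 0.08, adjusted p = 9.71e-11), CREB3L2 (-2.55, SE 0.17, adjusted p = 3.14e-08) and XBP1 (-1.55, SE 0.12, adjusted p = 8.88e-08). It was not called for CREB3, CRELD2, DERL1, DERL2, DNAJB11, EDEM2, EIF2AK3 and OS9. Without replicate 15 the term passed for 31.

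Genes of the same compartment outside the 41 were counted in lists chosen by known function. Counts are given in the order Ag2S 160, Li-doped 160, Ag2S 320 and Li-doped 320 μg/mL, where 11.5%, 22.6%, 16.2% and 17% of all genes rose and 23.8%, 40.6%, 36.2% and 44.6% fell. After scaling, 16%, 30.6%, 23.7% and 27.9% of all genes were higher and 14.1%, 30.1%, 22% and 26.4% lower. Of the 8 listed outputs of the PERK branch, 8 were higher with Li-doped Ag2S NPs at 160 μg/mL and 5 higher and 1 lower at 320 μg/mL, but 1 higher and 3 lower with Ag2S NPs at either dose. After scaling these were 8 and 0, 5 and 0, and 2 and 2 at either dose. Whether PERK, a related kinase or neither moved these genes was not tested. ATF4, the factor translated when PERK or a related kinase is active, rose with Li-doped NPs (1.25 and 0.69 at 160 and 320 μg/mL). With Ag2S NPs it was called only after scaling (0.23 and 0.35). CHAC1, which degrades glutathione, rose with Li-doped NPs alone (5.76 and 2.87, from 0.89 to 1.25 FPKM in Control to 62.0 to 68.1 and 6.85 to 9.99 FPKM), and so did TRIB3, a pseudokinase induced by ATF4 (3.005 and 0.738). SESN2, a stress-induced regulator of growth signalling, rose with Li-doped NPs at 160 μg/mL (0.72) and fell with Ag2S NPs at 160 and 320 μg/mL (-0.35, not called after scaling, and -0.98). DDIT3, which encodes CHOP and was singled out after its values were seen, measured 32.6 ± 2.14 FPKM in Control, 166 ± 19.7 and 31.3 ± 0.93 FPKM with Li-doped NPs at 160 and 320 μg/mL, and 16.6 ± 1.08 and 19.8 ± 1.92 FPKM with Ag2S NPs (SD, n = 3).

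Of 16 listed translocon and signal peptidase genes, 2, 11, 5 and 4 rose and 1, 1, 1 and 7 fell. After scaling 5, 11, 10 and 6 were higher and 0, 1, 0 and 2 lower. SSR3, a subunit beside SSR1, rose in all 4 groups, by 0.49, 1.81, 0.95 and 0.65, as did SERP1, which stabilizes membrane proteins under stress (0.24, 1.08, 0.48 and 0.33). SEC62 fell in 3 groups (-0.78, -0.23 and -0.91, not with Ag2S NPs at 160 μg/mL, and after scaling with Li-doped NPs alone), and TRAM1 rose with Li-doped NPs at 160 μg/mL (0.21) and fell with them at 320 μg/mL (-0.48). After scaling TRAM1 was also called higher with Ag2S NPs (0.28 and 0.30). Of 18 COPII coat and cargo receptor genes, 4, 9, 7 and 5 rose and 3, 1, 2 and 9 fell. After scaling 6, 13, 10 and 7 were higher and 1, 1, 2 and 4 lower. KDELR3, a receptor that returns chaperones to the ER, rose by 0.98, 1.74, 1.52 and 1.12, and the cargo receptors TMED9 (0.22 to 0.94) and TMED10 (0.32 to 0.74) rose in all 4 groups. SEC23B fell in the 3 groups other than Li-doped NPs at 160 μg/mL (-0.40 to -0.56), where it was called higher after scaling (0.38).

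Of 16 N-glycan genes, 3, 9, 6 and 4 rose and 1, 4, 2 and 4 fell. After scaling 7, 9, 6 and 9 were higher and 0, 1, 0 and 0 lower. The oligosaccharyltransferase subunit genes OSTC (0.51, 1.12, 0.79 and 0.51) and TUSC3 (0.21 to 0.36) rose in all 4 groups. RPN2 rose with Li-doped NPs at 160 μg/mL (0.18) and was lower with them at 320 μg/mL (-0.35, and -0.10 after scaling, not called). MAN1B1, a trimming mannosidase, fell with Li-doped NPs at 160 μg/mL (-0.71) and, before scaling only, with Ag2S NPs at 320 μg/mL (-0.36). Of 22 other folding enzymes, 1 and 9 of 21 tested rose and 4 and 6 fell at 160 μg/mL, and 6 and 3 of 20 tested rose and 5 and 7 fell at 320 μg/mL. After scaling 4, 9, 7 and 8 were higher and 0, 4, 4 and 3 lower. PDIA5 rose in 3 groups (1.64, 0.91 and 0.71, not with Ag2S NPs at 160 μg/mL), ERO1A, the oxidase of the disulfide isomerases, in all but Li-doped NPs at 320 μg/mL (0.32, 1.03 and 0.67). The thioredoxin-like TMX1 fell in all 4 (-0.31 to -0.78) and TMX2 in 3 (-0.22 to -0.53), though neither was called with Ag2S NPs at 160 μg/mL after scaling, and TMX2 with Li-doped NPs at 320 μg/mL became 0.03. Of 20 other ERAD factors, 0, 3, 1 and 1 rose and 6, 8, 6 and 11 fell. After scaling 1, 6, 3 and 5 were higher and 2, 5, 4 and 2 lower. UBE2J1 (-0.41 to -0.87) and TMEM129 (-0.48 to -0.81) were lower in all 4 groups, RNF5 was lower in 2 (-1.08 with Li-doped NPs at 160 μg/mL, -0.88 with Ag2S NPs at 320 μg/mL) and UBXN4 in 3 (-0.34, -0.75 and -0.83). After scaling TMEM129 with Li-doped NPs at 320 μg/mL and UBXN4 with Ag2S NPs at 160 μg/mL were no longer called. Of 12 tested regulators of the response, 0, 4, 3 and 4 rose and 2, 4, 4 and 5 fell. After scaling 3, 4, 4 and 4 were higher and 1, 2, 1 and 1 lower. WFS1 (1.46, 0.87 and 0.91) and AGR2 (1.25, 0.32 and 0.60) rose in all groups but Ag2S NPs at 160 μg/mL, where AGR2 was called after scaling (0.37). CREB3L4, a relative of CREB3L2, fell in all 4 (-0.52 to -1.19), and TMBIM6 was lower at 320 μg/mL with both kinds (-0.22 and -0.28, neither called after scaling). Of the partners of P4HB, P4HA2 rose in all 4 groups (0.73, 1.00, 1.17 and 0.78) and P4HA1 fell with Ag2S NPs at 160 μg/mL (-0.22, not called after scaling) and Li-doped NPs at 320 μg/mL (-0.94). After scaling P4HA1 was higher with Li-doped NPs at 160 μg/mL (0.34) and Ag2S NPs at 320 μg/mL (0.36).

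Promoters were read as 250 bases before to 50 bases after the start from RefSeq (GRCh38.p14), where 37 of the 41 genes had an entry; DERL1, DERL3, PDIA3 and SEC24D had none. The ER stress response element, known to bind ATF6 with NF-Y, was searched on both strands as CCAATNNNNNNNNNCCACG (ERSE) and as ATTGG, any base, then CCACG (ERSE-II). ERSE was found in CALR, CANX, CRELD2, HSP90B1, HSPA5, PDIA6 and XBP1 and in 0.0769% of 35116 promoters, and ERSE-II in HERPUD1, HYOU1 and SDF2L1 and in 0.0541% of promoters. The core TGACGTGG of the element that XBP1 binds was found in DNAJC10, HYOU1, TXNDC11 and TXNDC5 and in 0.729% of promoters. These shares are of promoter entries, 35116 for 27305 gene names, while the 37 ER genes are counted as genes. The stretches around the match are shown for 7 genes, on the strand of the gene with the match in capitals, because these letters are shared by members whose levels moved differently.
HSPA5, chr9:125241376-125241424: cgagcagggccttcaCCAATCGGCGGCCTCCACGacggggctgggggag
XBP1, chr22:28800588-28800636: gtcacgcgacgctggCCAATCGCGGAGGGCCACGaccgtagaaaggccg
PDIA6, chr2:10812838-10812886: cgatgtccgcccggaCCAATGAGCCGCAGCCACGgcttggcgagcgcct
CALR, chr19:12938369-12938417: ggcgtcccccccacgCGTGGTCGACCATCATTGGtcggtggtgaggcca
CRELD2, chr22:49918539-49918587: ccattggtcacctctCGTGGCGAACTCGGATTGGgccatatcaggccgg
SDF2L1, chr22:21642099-21642139: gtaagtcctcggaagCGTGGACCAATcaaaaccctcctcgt
HERPUD1, chr16:56932010-56932050: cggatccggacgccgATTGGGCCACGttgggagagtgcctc

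Of the 10 genes with either form of ERSE, 5, 10, 9 and 6 were higher and 1, 0, 1 and 1 lower in the order Ag2S 160, Li-doped 160, Ag2S 320 and Li-doped 320 μg/mL, with median log2 fold changes of 0.24, 0.75, 0.71 and 0.38. Of all genes 11.5%, 22.6%, 16.2% and 17% were higher there and 23.8%, 40.6%, 36.2% and 44.6% lower. Of the other 27 with a promoter entry, 7, 18, 10 and 8 were higher and 5, 0, 2 and 8 lower, with medians of 0.05, 0.57, 0.14 and -0.03. After scaling 7, 10, 9 and 9 of those with ERSE were higher and 0 lower, and of the others 8, 22, 14 and 11 were higher and 1, 0, 0 and 5 lower. Of all genes 16%, 30.6%, 23.7% and 27.9% were then higher and 14.1%, 30.1%, 22% and 26.4% lower. The gene with a match that was lower before scaling was HERPUD1 in each case. HSPA5 and CALR both hold an exact ERSE, and at 160 μg/mL HSPA5 was 1.32 higher with Li-doped than with undoped NPs on the log2 scale while for CALR the difference was -0.07. A match describes letters in this window and was not tested as a binding site.

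The sources used here do not state that strand was used in assigning reads, and exons of CREB3, CRELD2, DERL1, DERL2, DERL3, DNAJB9, DNAJB11, HSP90B1, PDIA3, SYVN1 and TXNDC11 overlap exons of genes on the opposite strand with mean levels above 1 FPKM. Reads of such partners cannot be told apart. TXNDC5 shares 1745 bases of exon with the read-through gene BLOC1S5-TXNDC5, which averaged 0.041 FPKM.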

How the data were processed

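RNA of 15 HaCaT libraries (5 groups of 3) was sequenced by the authors as paired 150-base reads after TruSeq library preparation. The deposited values are FPKM per gene and per transcript, which the authors computed in Cufflinks 2.1.1 and Cuffdiff from TopHat alignments, correcting for multiple mapping and fragment bias. For the genome build, the annotation and other versions the sources used here give nothing, and depth is unknown because no counts were used. Each dose has its own table of 9 libraries, with equal Control values in both. Columns with the authors' own fold changes and p-values were not used.

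Genes with a mean of at least 1 FPKM were fitted as log2(FPKM + 0.1) with limma 3.58.1 in R 4.3.3 (empirical Bayes with trend), 1 fit per dose, and 1 fit over all 15 libraries for dose effects and the interaction. Tests were two-sided, with Benjamini-Hochberg adjusted p over all genes and a threshold of 0.05. Every adjusted p in the text comes from limma, except those of the exact permutation tests. The scripts were tested on simulated data. Alternatives were pseudocounts of 1 and 0.01, no filter or 5 FPKM, median scaling, library weights, other sets of libraries and leaving out each library. Values in every library were given for the 12 genes with the largest called change against Control and for HSPA5, XBP1, ATF6, ERN1, EIF2AK3, HERPUD1 and CALR. From each further list up to 4 genes with the smallest p against Control at 320 μg/mL were named. Members, lists and tests were chosen with earlier results of these data known. Gene positions come from GENCODE 29 (GRCh38), which held all 41 identifiers.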

Additional observations from a re-analysis of the deposited data

Results flagged for a closer look

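The effect of raising the dose from 160 to 320 μg/mL differed between Li-doped and undoped Ag2S NPs for 32 of the 40 tested ER genes, by the interaction term of limma over all 15 libraries at an adjusted p under 0.05. Values are log2 differences, with negative values for a lower effect of dose with Li-doped NPs. Among sensors and transcription factors they were -2.55 for CREB3L2, -2.18 for ERN1, -1.55 for XBP1 and -0.76 for ATF6. Among chaperones and cofactors they were -2.04 for HSPA5, -1.96 for DNAJB9, -1.40 for HSP90B1, -1.32 for HSPA13, -1.09 for SDF2L1, -0.97 for HYOU1, -0.84 for DNAJC3 and -0.60 for MANF. In the lectin cycle they were -1.03 for CANX, -0.53 for CALR and -0.52 for UGGT1. Among isomerases and redox proteins they were -1.44 for TXNDC5, -1.07 for PDIA4, -1.01 for PDIA6, -0.96 for PDIA3, -0.88 for P4HB, -0.76 for ERP44, -0.75 for PPIB, -0.73 for TXNDC11 and -0.69 for DNAJC10. Among ERAD genes they were -1.15 for EDEM1, -1.01 for SYVN1, -0.92 for HERPUD1, -0.79 for SEL1L and -0.71 for ERLEC1. In transport they were -1.63 for SEC24D, -0.70 for SEC61B and -0.66 for SSR1. Of all genes tested, 19.5% passed in this direction. Groups of 3 libraries are too small for a test of single outlying libraries.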

How the results depend on the processing

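Depth is unknown, 3 libraries a group limit the precision, and FPKM are relative values. Counts of ER genes that rose against Control stayed within 1.5 times of those reported under every alternative other than leaving out a library. Counts that fell against Control depended more on the setting. With Ag2S NPs at 160 μg/mL the 6 lower genes became 3 without a filter, 1 after median scaling, 2 with the compared groups alone and 3 in the 15-library fit. After median scaling the 3 lower with Ag2S NPs at 320 μg/mL became 0 and the 9 with Li-doped NPs became 5. The number higher with Li-doped than with undoped NPs at 320 μg/mL went from 0 to 1 in the 15-library fit. The number higher at 320 than at 160 μg/mL with Li-doped NPs went from 1 to 2 with library weights and to 0 with the compared groups alone. With Li-doped NPs at 320 μg/mL against Control, median scaling turned ERP44 to 0.0192, HERPUD1 to 0.0517, CANX to 0.1917 and HSP90B1 to 0.1984 on the log2 scale, and library weights turned EDEM1 to 0.275; the cause was not tested.

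Leaving out 1 library at a time gave these ranges. With Ag2S NPs at 160 μg/mL 8 to 13 rose, with 8 without Control replicate 2, and 1 to 6 fell. The lowest was 1 without Control replicate 3, and it was 2 without Control replicate 1 or 2, Ag2S replicate 5 or Li-doped replicate 10 or 11. With Ag2S NPs at 320 μg/mL 1 to 5 fell, with 1 without Ag2S replicate 8 and 5 without Li-doped replicate 15. At 320 μg/mL 0 to 1 was higher with Li-doped than with undoped NPs, with 1 without Li-doped replicate 13 or 14. Between the doses 11 to 20 were higher with undoped NPs, with 11 without replicate 9, and 0 to 1 with Li-doped NPs, with 0 without replicate 10 or 13. The interaction passed for 31 to 33 genes, all lower. No paired analysis was possible because the groups share no replicate numbers.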
